A study of Rattus norvegicus with 9 samples.

Results

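The early growth response genes Egr1, Egr2, Egr3 and Egr4 and the genes of their corepressors Nab1 and Nab2 were followed in rat cortical neuron cultures before and after release from tetrodotoxin (TTX). The 6 genes were taken by name, each by every probe that carries its symbol once the suffix for predicted or mapped genes is removed. Each gene had 1 probe, so that 6 of the 41012 probes on the array were followed, or 6 of 35561 gene names or identifiers in the files. The cultures were dissociated from the cortex of prenatal rat pups, grown in Neurobasal with either B27 or NS21 as supplement, and used after 11 to 15 days. All groups had spent 48 h in TTX, which silences neurons by blocking the sodium channels that carry action potentials. The TTX group was not released from it, and the W15 and W45 groups were collected 15 and 45 min after the toxin had been taken off by 3 washes, with 3 arrays in each group. The labels state no wash for the TTX group, so return of activity and the medium change cannot be told apart in the comparisons with TTX. Whether the replicates of a group are separate cultures is not in the labels, so p values measure only the spread between these samples, which may be technical. RNA came from whole cultures, in which a change in the number of cells of a type and a change in RNA per cell cannot be told apart.

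Egr proteins are zinc finger transcription factors that bind GC-rich DNA. Their genes are immediate early genes, transcribed within minutes of a stimulus through transcription factors already present in the cell, among them serum response factor (SRF) with its ETS partners, which bind CArG boxes, and CREB, which binds the cAMP response element. Nab1 and Nab2 bind an inhibitory domain that Egr1, Egr2 and Egr3 share and Egr4 lacks, and they repress transcription in part through the chromatin remodelling complex NuRD. In neurons Egr1, also known as zif268, is a widely used marker of recent activity and is linked to memory in rodents.

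Each level below is the log2 processed signal of the probe minus the 75th percentile of its array, so that 0 is the level of the probe at that percentile. The 75th percentile signal lay between 1456 and 2343, and 72.4 to 77.9% of probes stood well above background on each array. All 6 probes stood well above background on all 9 arrays, and none was saturated. Probe positions are on the rn3 build, as the array files give them, and the files do not say in which exon or UTR a probe lies. The Egr1 probe is matched to NM_012551 and lies at chr18:27373819-27373878 on the plus strand. The Egr2 probe (NM_053633) lies at chr20:21897740-21897799 on the minus strand and the Egr3 probe (NM_017086) at chr15:50494763-50494822 on the plus strand. The Egr4 probe (NM_019137) lies at chr4:120009770-120009829 on the minus strand. The Nab1 probe (NM_022856) is placed at chr9:46106295-46115118 on the plus strand, a span of 8824 bases, and the Nab2 probe (XM_235224) at chr7:67667420-67667479 on the minus strand. The probes are 60 bases long, and the longest run of bases shared by any pair of them was 9 bases, so that no Egr probe holds a long stretch of another. The first 30 bases of each probe show what was measured, in lower case throughout:
Egr1: tttgtatgctatgaacatgaagttcattat
Egr2: gctcttaatagttgtggaaagattaaacaa
Egr3: aacaagaccgtgacctacttgggaaagttc
Egr4: cagacgctactctcaagcatttgacaaaac
Nab1: tgtggtgaaagagatgaattgtctccaaag
Nab2: tccagaccgcctggaaccagagatggtgcg

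Promoter windows of 300 bases, from 250 before to 50 after the annotated start, were taken from RefSeq on the GRCr8 build for Egr1, Egr2, Egr4, Nab1 and Nab2, and for Egr3 no sequence is shown. The 250 bases before the start are printed for the 4 genes whose window held a match to a motif searched, with the matches in capitals. They lie at chr18:26736828-26737077 on the plus strand, chr20:21054442-21054691 on the minus strand, chr4:119607818-119608067 on the minus strand and chr9:56545392-56545641 on the plus strand, and each is written 5′ to 3′ along the gene:
Egr1: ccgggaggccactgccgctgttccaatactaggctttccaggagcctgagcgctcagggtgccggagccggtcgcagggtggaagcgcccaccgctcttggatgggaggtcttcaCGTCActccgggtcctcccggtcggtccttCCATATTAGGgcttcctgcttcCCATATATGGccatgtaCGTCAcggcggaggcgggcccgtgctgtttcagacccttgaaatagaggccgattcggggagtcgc
Egr2: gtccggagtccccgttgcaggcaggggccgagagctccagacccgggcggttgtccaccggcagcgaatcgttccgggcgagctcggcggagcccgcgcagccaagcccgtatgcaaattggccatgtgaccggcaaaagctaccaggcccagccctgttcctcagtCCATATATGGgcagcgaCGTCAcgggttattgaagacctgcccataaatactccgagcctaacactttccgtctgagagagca
Egr4: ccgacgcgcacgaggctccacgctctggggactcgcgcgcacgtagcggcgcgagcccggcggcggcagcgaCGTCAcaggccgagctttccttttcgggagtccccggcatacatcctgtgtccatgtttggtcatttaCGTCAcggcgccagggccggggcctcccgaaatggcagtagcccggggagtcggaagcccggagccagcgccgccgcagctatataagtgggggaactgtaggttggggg
Nab1: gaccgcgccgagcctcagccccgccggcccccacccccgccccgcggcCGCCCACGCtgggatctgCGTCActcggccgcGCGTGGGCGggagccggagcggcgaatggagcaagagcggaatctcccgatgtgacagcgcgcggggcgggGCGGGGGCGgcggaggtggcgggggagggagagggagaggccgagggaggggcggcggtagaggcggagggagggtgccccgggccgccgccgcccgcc

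The motifs were searched on both strands. They were the CArG box bound by SRF, the cAMP response element TGACGTCA, its shorter form TGACG, and the Egr sites GCGTGGGCG and GCGGGGGCG. The CArG box was searched only as CCWWWWWWGG, where W is A or T, and near matches were not counted. A full TGACGTCA also counts as TGACG, and no member's window held the full element. Egr1 had 2 CArG boxes, at -105 to -96 and at -83 to -74 bases from the start, and 2 TGACG matches, at -135 to -131 and at -66 to -62. Egr2 had 1 CArG box at -83 to -74 and 1 TGACG at -66 to -62, the same distances from the start as the nearer pair in Egr1. Egr4 had no match to this strict CArG pattern and 2 TGACG matches, at -178 to -174 and at -110 to -106. Its printed sequence holds ccatgtttgg, which differs from the CArG pattern by 1 base. This stretch precedes the match at -110 to -106 by the same spacing as the CArG box and TGACG at -66 to -62 have in Egr1 and Egr2. The stretch was read off the Egr4 sequence alone, and near matches were not searched in the windows of the other members. How many of all windows hold such a near match was not counted either. Nab1 had no CArG box, 1 TGACG at -184 to -180, 2 matches to GCGTGGGCG, at -202 to -194 and at -170 to -162, and 1 match to GCGGGGGCG at -99 to -91. The Nab2 window held none of these motifs. Of all 33469 promoter windows of this length, 1.64% held a CArG box, 0.0209% held 2 or more, and 0.272% held a CArG box together with TGACG. The shorter form TGACG was found in 21.2%, 2 or more TGACG matches in 4.96%, TGACGTCA in 1.83%, GCGTGGGCG in 0.544% and GCGGGGGCG in 2.73%. These matches describe letters in the window and do not show binding in these cultures.

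**Figure D1:**
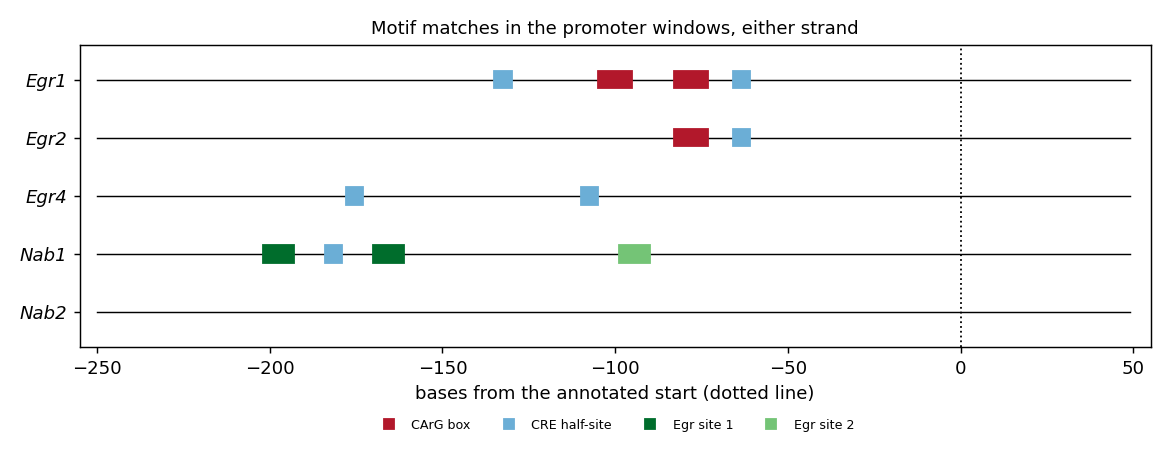
Motif matches on either strand in the RefSeq promoter windows of 5 genes, with the horizontal axis in bases from the annotated start (dotted line). Boxes mark exact matches to the CArG box, TGACG (CRE half-site), GCGTGGGCG (Egr site 1) and GCGGGGGCG (Egr site 2), and near matches are not drawn. The CArG box and TGACG of Egr2 lie at the same distances as the nearer pair of Egr1.

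The 4 Egr genes were called higher at 45 min than in TTX, and Egr1 and Egr4 already at 15 min, whereas neither Nab gene passed the test in any comparison. The Egr3 call at 45 min held in only 5 of 19 alternative fits. The 15 min calls held in 15 for Egr1 and 13 for Egr4, and neither held with slide as a block. Differences were tested per probe with limma over all 9 arrays and called at a Benjamini-Hochberg adjusted p under 0.05 over the 30321 probes kept. At 15 min 2 of the 6 members were called higher, where the same rule called 0.0198% of all probes higher and no probe lower (1067 probes, or 3.52%, had an unadjusted p under 0.05 in either direction). At 45 min 4 of 6 were called higher against TTX, where 0.171% of all probes were higher and 0.0198% lower. Between 15 and 45 min 3 of 6 were called higher, where 0.119% of all probes were higher and 0.00989% lower. No member was called lower in any comparison. The balance over all probes turned on single W45 arrays. Without W45 array 1 it was 80 higher and 124 lower against TTX and 71 and 161 against 15 min, and without W45 array 3 it was 58 and 35, and 37 and 36. The median log2 difference of the 6 members was 0.98 at 15 min and 2.77 at 45 min, and those of all probes were 0.05 and 0.05. The arrays of the 4 Egr genes lay higher without overlap in each of the 3 comparisons, as was the case for 10% of all probes at 15 min, 8.4% at 45 min and 3.99% between 15 and 45 min. The members were picked with earlier results of these data known, so these counts are a description of the genes and not independent support.

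**Figure D2:**
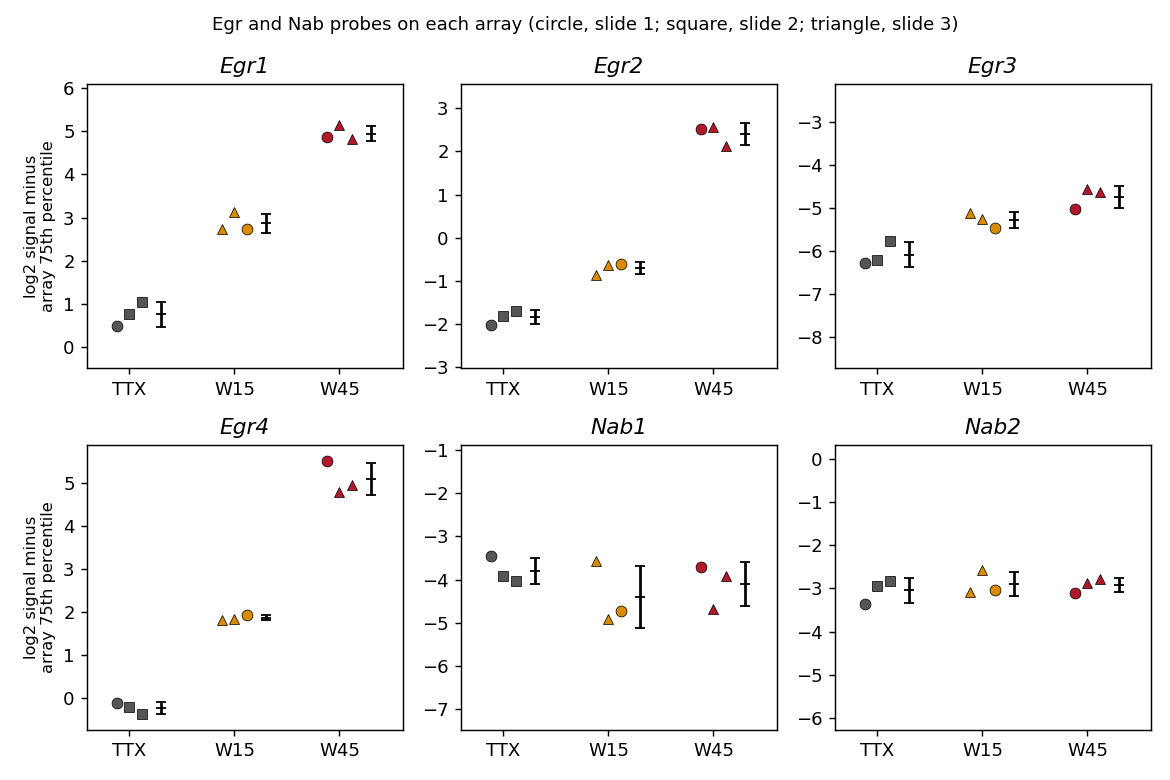
Log2 signal minus the array's 75th percentile for the 6 genes, 1 point per array, with the group mean and SD (n = 3) at the right of each group and the marker showing the slide. Points of the 4 Egr genes step up from TTX to W15 to W45 with no overlap, and the Nab1 and Nab2 points overlap in all groups.

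Egr1 had levels of 0.47, 0.75 and 1.04 in the TTX arrays 1 to 3, of 2.75, 3.13 and 2.73 in the W15 arrays, and of 4.88, 5.14 and 4.83 in the W45 arrays. Every W15 array was above every TTX array, and every W45 array above every W15 array. The group means were 0.76 ± 0.29, 2.87 ± 0.22 and 4.95 ± 0.16 (SD, n = 3 each). Egr1 rose by 2.11 ± 0.18 (log2 difference ± SE) at 15 min, a 4.32-fold change (95% interval of the log2 difference 1.70 to 2.53, limma adjusted p = 0.00761). At 45 min it was 18.3-fold above TTX (log2 difference 4.19 ± 0.18, limma adjusted p = 9.95e-06) and 4.23-fold above 15 min (2.08 ± 0.18, limma adjusted p = 0.00177). Its probe is printed in 10 spots on each array, and the SD of the log2 signal between those spots was 0.0274 to 0.258, so that the widest spread between spots of 1 array was of the size of the SD between arrays.

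Egr4, the family member without the Nab-binding domain, had levels of -0.10, -0.21 and -0.36 in TTX, of 1.82, 1.84 and 1.93 at 15 min, and of 5.51, 4.79 and 4.95 at 45 min. All groups stood apart, and at 45 min array 1 lay above the other two. Egr4 rose 4.25-fold at 15 min (log2 difference 2.09 ± 0.18, limma adjusted p = 0.00761). At 45 min it was 39.5-fold above TTX (5.30 ± 0.18, limma adjusted p = 6.89e-06), ranking 1 of all 30321 probes by p value. Its step between 15 and 45 min was 9.31-fold (3.22 ± 0.18, limma adjusted p = 0.00013). The geometric mean processed signal of Egr4 was 53508 at 45 min and that of Egr1 48723, and no array marked either probe as saturated.

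The calls of Egr1 and Egr4 at 15 min depended on single TTX and W15 arrays and on the slide, and that of Egr4 also on the background correction (log2 difference 1.80, limma adjusted p = 0.14 with normexp). Without TTX array 1 the limma adjusted p was 0.0509 for both, without TTX array 2 it was 0.0715 for both, and without W15 array 2 it was 0.0632 for Egr1 and 0.0773 for Egr4. Without TTX array 3 the Egr4 call was also lost (limma adjusted p = 0.0862). The sizes moved little under these settings, with a lowest log2 difference of 1.90 for Egr1 and 1.80 for Egr4 over all 19 alternatives. With slide as a block the log2 differences were 2.29 and 2.21, and neither passed the test (limma adjusted p = 0.17 for both). TTX array 1 is the only TTX array that shares a slide with the washed groups, and within that slide Egr1 was 2.26 and Egr4 2.03 higher in the W15 array than in the TTX array.

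Egr2, also known as Krox20 and best known for its part in hindbrain patterning and in myelination by Schwann cells, had levels of -2.02, -1.81 and -1.69 in TTX and of -0.86, -0.63 and -0.60 at 15 min. At 45 min its levels were 2.52, 2.57 and 2.12. Each group stood clear of the next, with the wider gap between 15 and 45 min. At 15 min Egr2 differed by 1.14 ± 0.16 on the log2 scale from TTX (2.21-fold, 95% interval 0.77 to 1.51), which did not pass the test over all probes (limma adjusted p = 0.211) and was not called in any of the 19 alternatives. At 45 min it was 18.9-fold above TTX (log2 difference 4.24 ± 0.16, limma adjusted p = 8.91e-06). The step from 15 to 45 min was 8.57-fold (3.1 ± 0.16, limma adjusted p = 7.76e-05).

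Egr3, which in rodents is needed for the development of muscle spindles, gave a dim probe, with processed signals of 21.9 to 43.3 in TTX and 52.1 to 63.7 at 45 min. Its levels were -6.28, -6.22 and -5.76 in TTX, -5.11, -5.25 and -5.47 at 15 min, and -5.04, -4.55 and -4.63 at 45 min, where the lowest signal well above background on an array lay between -7.24 and -6.84. The groups did not overlap, though the highest W15 array and the lowest W45 array lay close together. Before scaling, TTX array 3 lay within the range of the W15 arrays, 40.1 to 44.6. Egr3 was 2.54-fold higher at 45 min than in TTX (log2 difference 1.35 ± 0.19, limma adjusted p = 0.0353). Its differences at 15 min (0.81 ± 0.19, limma adjusted p = 0.973) and between 15 and 45 min (0.54 ± 0.19, limma adjusted p = 0.744) did not pass. The 45 min call held in 5 of 19 alternatives. With the background corrected by normexp, the log2 difference was 0.64 (limma adjusted p = 0.947), and with slide as a block it was 1.30 (limma adjusted p = 0.559). The normexp setting added an offset of 50, of the size of the Egr3 signal, and such an offset by itself narrows the log2 differences of dim probes. Its share in the lower value was not tested. With the replicate number as a block the call was also lost (limma adjusted p = 0.111).

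The changes of Egr1, Egr2 and Egr4 at 45 min against TTX and against 15 min were called in all 19 alternatives. The lowest log2 difference against TTX over these alternatives was 3.93 for Egr1, 3.98 for Egr2 and 5.04 for Egr4. Within slide 1, which held 1 array of each group, the log2 differences at 45 min were 4.40 for Egr1, 4.55 for Egr2, 1.25 for Egr3 and 5.60 for Egr4. The steps from 15 to 45 min on slide 1 were 2.14, 3.12, 0.44 and 3.57, and those on slide 3, with 2 arrays of each washed group, were 2.05, 3.09, 0.59 and 3.04, in the same order of genes.

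Nab1 and Nab2 did not pass the test at either time. Nab1 had levels of -3.45, -3.92 and -4.03 in TTX, of -3.58, -4.91 and -4.74 at 15 min, and of -3.72, -4.68 and -3.92 at 45 min, and these ranges overlapped. Its log2 differences from TTX were -0.60 (95% interval -1.44 to 0.23, limma adjusted p = 0.973) at 15 min and -0.30 (-1.14 to 0.53, limma adjusted p = 0.929) at 45 min. Nab2, which in other cell systems is itself induced by Egr proteins and then restrains them, had levels of -3.37, -2.94 and -2.83 in TTX, of -3.08, -2.58 and -3.04 at 15 min, and of -3.11, -2.88 and -2.79 at 45 min. All 3 groups of Nab2 overlapped. Its log2 difference was 0.14 (-0.29 to 0.58, limma adjusted p = 0.977) at 15 min and 0.12 (-0.32 to 0.56, limma adjusted p = 0.946) at 45 min. In the main fit the 45 min intervals of Nab1 and Nab2 both leave out a rise as large as the estimate for any of the 4 Egr genes. The Egr3 estimate was lower with normexp (0.64), and no Nab interval was read in that setting. A p value above the threshold does not show that the Nab genes were unchanged.

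**Figure D3:**
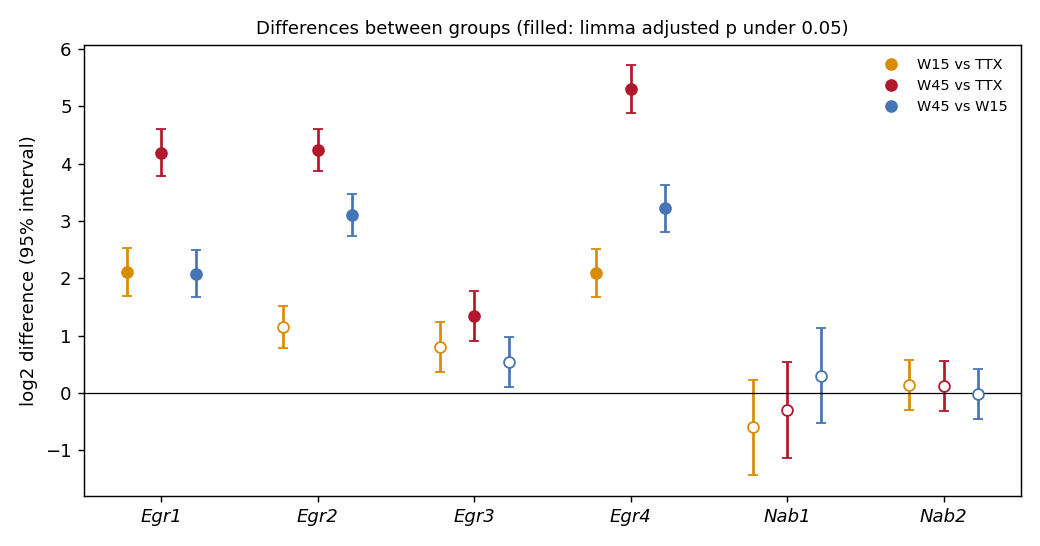
Log2 differences of the 6 genes in the 3 comparisons, with 95% intervals from the limma fit and filled points where the adjusted p was under 0.05. Egr1, Egr2 and Egr4 reach 4.19, 4.24 and 5.30 at 45 min, Egr3 reaches 1.35, and the intervals of Nab1 and Nab2 include 0 in each comparison.

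The changes of the Egr genes at 15 and 45 min were set side by side. On the log2 scale the difference at 15 min came to 50.4% of that at 45 min for Egr1, 39.3% for Egr4, 27.0% for Egr2 and 60.0% for Egr3. On the linear scale these shares were 19.2%, 8.43%, 6.74% and 48.6%, in the same order, so that most of the signal gained by Egr1, Egr2 and Egr4 came between 15 and 45 min. The 15 min differences of Egr2 and Egr3 were not called. With normexp the log2 difference of Egr3 was 0.83 at 15 min and 0.64 at 45 min, where the medians of all probes were 0.20 and 0.13. The share of Egr3 thus has no firm value. The offset of 50 in that setting is of the size of this dim signal, so the order of the normexp values is not a result about Egr3. These shares are descriptions and were not tested against each other. The changes of 7 pairs of genes, all pairs within the Egr genes and the Nab pair, were set against each other on the same arrays in 3 comparisons. Each was an exact two-sided permutation test of 3 arrays against 3, which cannot give a p under 0.1. After adjustment over the 21 tests the smallest value was 0.15, so none could pass. At 15 min the change of Egr1 exceeded that of Egr2 by 0.97 ± 0.14 (log2 ± SE, exact permutation p = 0.1), and the changes of Egr1 and Egr4 differed by 0.02 ± 0.28 (exact permutation p = 1). At 45 min against TTX the change of Egr1 was below that of Egr4, with a difference of -1.11 ± 0.37 (exact permutation p = 0.1), and differed from that of Egr2 by -0.05 ± 0.12 (exact permutation p = 0.8). From 15 to 45 min the changes of Egr2 and Egr4 differed by -0.12 ± 0.24 (exact permutation p = 0.7), and the change of Egr1 was below that of Egr2, with a difference of -1.02 ± 0.16 (exact permutation p = 0.1).

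Known upstream factors and kinases of Egr transcription (SRF, ETS partners, MRTF, CREB and the ERK pathway) were measured with 17 of 19 listed genes, and none was called in any comparison. Over all probes at most 0.171% were called higher and 0.0198% lower in a comparison, so that no call in so short a list says little about its genes. Their median log2 difference was 0.03 at 15 min and 0.07 at 45 min, where all probes had 0.05 at each time. The largest differences, none called, were those of Rps6ka5, a kinase that phosphorylates CREB (-0.55 ± 0.43 between 15 and 45 min, limma adjusted p = 0.842), and of the SRF partner Elk4 (0.33 ± 0.16 at 45 min against TTX, limma adjusted p = 0.776). Srf itself, named here after its values were seen, differed by 0.14 ± 0.13 at 45 min (limma adjusted p = 0.901). The array measures transcript levels and not the phosphorylation by which these proteins act.

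Of 23 genes reported as targets of Egr proteins in neurons or other cells, 20 passed the filter on dim probes. None was called at 15 min, where 0.0198% of all probes were called higher. At 45 min 2 were called higher against TTX and against 15 min, where 0.171% and 0.119% of all probes were. Arc, an activity-induced synaptic gene, was 1.69 ± 0.25 higher on the log2 scale at 15 min than in TTX, which did not pass (limma adjusted p = 0.211). Its W15 arrays all lay above its TTX arrays, as was the case for 10% of all probes. At 45 min Arc was 5.32 ± 0.25 higher than in TTX (limma adjusted p = 1.12e-05). Ptgs2, the inducible cyclooxygenase, was 1.27 ± 0.15 higher (limma adjusted p = 0.00933) and 1.21 ± 0.15 higher than at 15 min (limma adjusted p = 0.0178). The other 18 measured targets did not pass. The largest of these were Ache, acetylcholinesterase (0.48 ± 0.18 at 15 min, limma adjusted p = 0.973), and Gabra4, a GABA receptor subunit (-0.40 ± 0.28 at 15 min, limma adjusted p = 0.973). The list's median log2 difference at 45 min was 0.09 beside 0.05 for all probes.

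Myelin genes, known as Egr2 targets in Schwann cells, and genes of the NuRD complex, through which Nab proteins repress, were also read. With at most 0.171% of all probes called higher and 0.0198% lower in a comparison, the lack of a call in these short lists says little about their genes. None of 6 myelin genes was called, with a median log2 difference of 0.16 at 15 min and 0.17 at 45 min. None of the 12 NuRD genes on the array was called, with medians of 0.09 and 0.10. The NuRD helicase gene Chd4 differed by 0.49 ± 0.16 between 15 and 45 min (limma adjusted p = 0.718), and the histone-binding subunit gene Rbbp4 by 0.44 ± 0.27 (limma adjusted p = 0.806). Of 4 other factors that bind GC-rich sites, 3 were measured and none was called. The largest difference among these was that of Sp4 (-0.23 ± 0.21 at 15 min, limma adjusted p = 0.973).

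**Figure D4:**
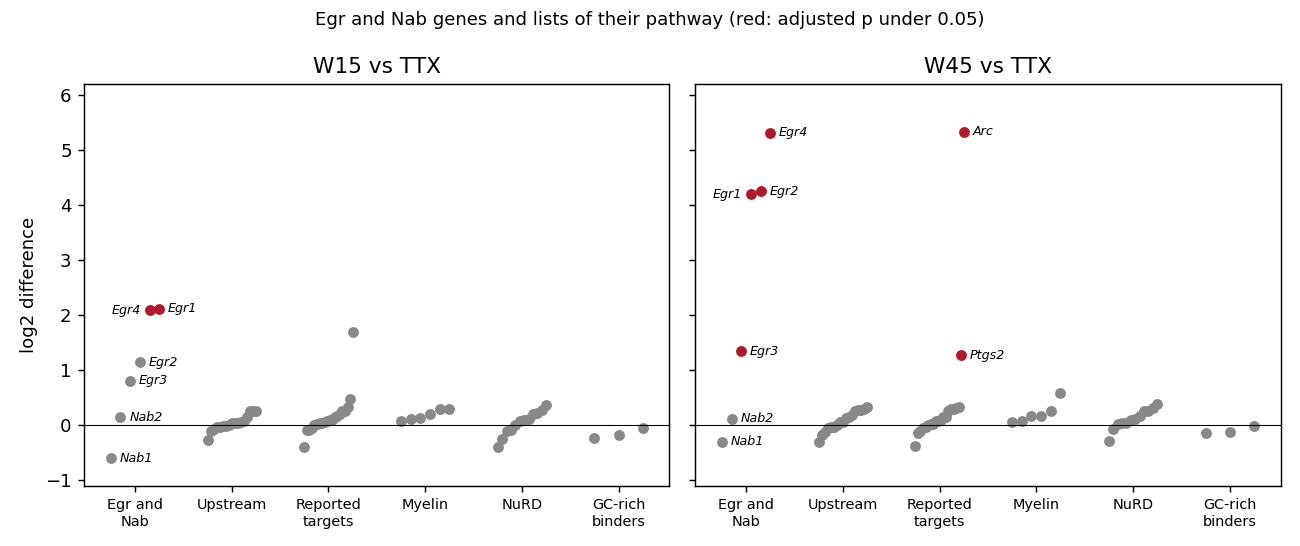
Log2 differences at 15 and 45 min against TTX for the Egr and Nab genes and 5 lists of genes linked to them, 1 point per gene and red where the limma adjusted p was under 0.05. Only Arc and Ptgs2 among the listed genes are red at 45 min, and none is red at 15 min.

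The genes whose pattern over the 9 arrays was most like that of a member were picked by Pearson's r over 12786 probes with a symbol, as a description over arrays that share scaling and fall into the same 3 groups. Closest to Egr1 were Gadd45g (r = 0.993), Ier2 (r = 0.986) and Npas4 (r = 0.983). Closest to Egr4 were Ier2 (r = 0.991), Gadd45g (r = 0.990) and Arc (r = 0.988). Egr2 was closest to Arc (r = 0.996), Rasl11a (r = 0.989) and Ch25h (r = 0.983). At 15 and 45 min against TTX the log2 differences were 1.69 and 5.32 for Arc, 0.55 and 2.47 for Rasl11a, and 0.35 and 3.33 for Ch25h, beside 1.14 and 4.24 for Egr2. Egr3 was closest to Olr670 (r = 0.974), Slit3 (r = 0.974) and Synj1 (r = 0.970), Nab1 to Snx24 (r = 0.941), Pdgfd (r = 0.936) and Snx19 (r = 0.924), and Nab2 to Pak6 (r = 0.979), Chd3 (r = 0.978) and Itih1 (r = 0.977). A high r does not mean a change of like size. Against TTX Olr670 differed by 1.08 and 1.41, Slit3 by 0.13 and 0.21 and Synj1 by 0.20 and 0.41, beside 0.81 and 1.35 for Egr3. Among the genes closest to Nab1 and Nab2 the largest were those of Pdgfd (-0.39 and -0.41). How high the top r of 12786 probes would be without a shared pattern was not tested.

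Markers of the cell types that such cultures may hold were read beside these results. Of 8 neuron markers, 7 were measured, and their summed signal, in units of the 75th percentile, was 97.1 to 123 in TTX, 105 to 127 at 15 min and 93.9 to 124 at 45 min. The 6 astrocyte markers summed to 76.6 to 90.2, 79.3 to 88.7 and 73.0 to 96.7 in the same groups, and the 6 markers of the oligodendrocyte lineage to 47.2 to 54.6, 47.7 to 54.4 and 49.3 to 59.4. The sums are of linear signal, so that the brightest probes carry most of them. In TTX the brightest of each list were Tubb3 (mean level 6.44), Slc1a3 (6.08) and Olig1 (4.89). The dimmest measured were Gad2 (-2.62), S100b (-5.82) and Mog (-3.90). The cultures thus gave signal for glial as well as neuronal genes, but the sums do not compare amounts of the cell types. Microglia markers summed to 0.250 to 0.312 in TTX, 0.237 to 0.257 at 15 min and 0.126 to 0.279 at 45 min. Aif1 and Cx3cr1 were not well above background on any array. The microglia sum was nearly all Cd68, with a mean level of -1.94 in TTX beside -6.18 for Csf1r. Cd68 was not called at 45 min against TTX (log2 difference -0.71 ± 0.29, limma adjusted p = 0.755). Endothelial and fibroblast markers summed to at most 0.0336 and 1.74 on any array, and Schwann cell markers to 6.50 to 8.79, with Cdh19 not well above background on any array. The Schwann cell list shares Sox10 with the oligodendrocyte lineage. No measured marker of these 7 cell types was called in any comparison, where at most 0.171% of all probes were called higher and 0.0198% lower. Which cells carried the Egr transcripts was not tested.

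**Figure D5:**
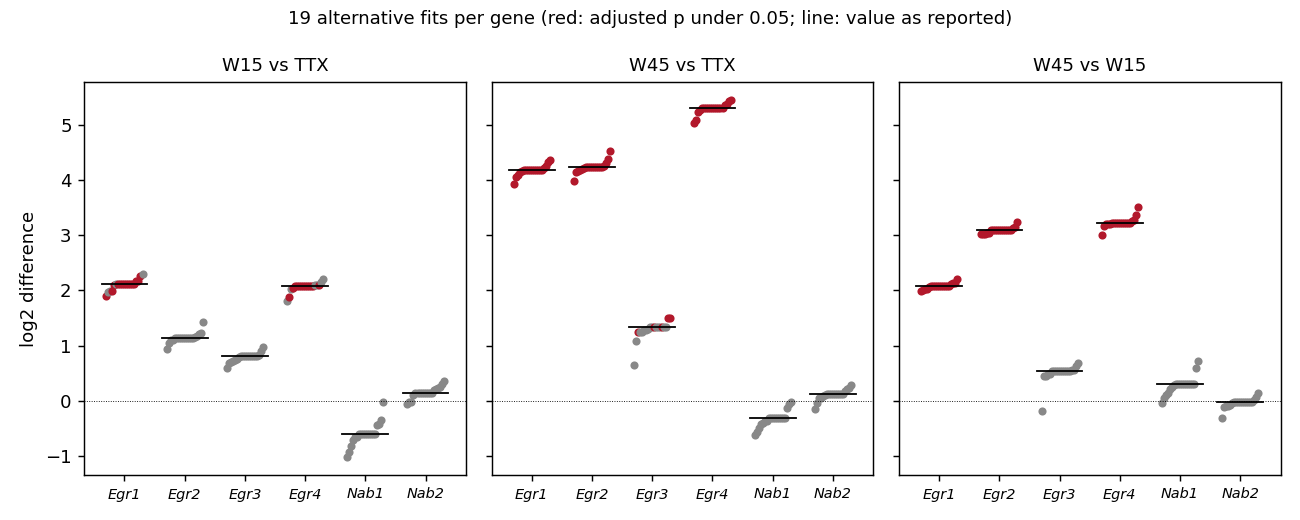
Log2 differences of the 6 genes under 19 alternative settings (points, red where the adjusted p was under 0.05), with a line at the value reported. Egr1, Egr2 and Egr4 are red throughout at 45 min, Egr3 in 5 of 19 settings, and the Egr1 and Egr4 points at 15 min in 15 and 13.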

How the data were processed

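Rat cortical neuron cultures were hybridised to 9 single-colour Agilent arrays (design 014879), whose scans were quantified by Agilent Feature Extraction, version 9.5.3.1, per the file headers. The deposited values are spot intensities, which per the file headers had been background-subtracted and detrended within each array but not scaled from array to array. The deposited matrix held the same intensity values, with a largest difference of 0, and served as the alternative without scaling.

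Control spots and spots marked as outliers (49 to 111 per array) were left out, and spots of 1 probe were averaged. Values analysed were log2 signals relative to the array's 75th percentile. Of 41012 probes, 30321 were kept, because the scanner marked them well above background on all 3 arrays of some group, with at most 1 array missing. The limma package, version 3.58.1, was run under R 4.3.3 with data.table version 1.17.8 on all 9 arrays together, with no covariate and 6 residual degrees of freedom. The Benjamini-Hochberg adjustment was over all probes tested. The number of arrays limits the precision, and correlations of arrays within a group were 0.984 to 0.996. Fits were tested on simulated data with independent noise for each probe and array. That simulation held no slide or replicate number effect, so it does not cover the calls that depend on them. Python 3.11.15 with pandas 2.3.3 and matplotlib 3.10.9 was used for reading files and plotting.

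The members, lists and tests were chosen with earlier results of these data known. All members are described. From each list at most 4 genes were named, first those called and then those with the largest difference. Of the listed genes, 1 that this rule names is not reported here. For likeness, the 3 probes with the highest Pearson's r were named. A gene of several probes was represented by its brightest kept probe. Slides were read from the array headers. Slide 1 held TTX array 1, W15 array 3 and W45 array 1, slide 2 held TTX arrays 2 and 3, and slide 3 held the rest, so that slide and group are partly confounded where TTX is compared. Arrays with the same replicate number deviated together from their group means in all 9 pairs (r = 0.06 to 0.38), from the data alone. For TTX and W15 the values were 0.31, 0.38 and 0.22, and the block by number changed no member call in that comparison. At 45 min against TTX the block lost the Egr3 call (limma adjusted p = 0.111). The alternatives covered background correction, scaling, the filter, the probe choice, the samples fitted, the variance model, slide and number blocks and leaving out each array. Background correction by normexp used an offset of 50.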

Additional observations from a re-analysis of the deposited data

Results flagged for a closer look

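The rise of 3 members differed between the times after washout, as tested by the limma comparison of W45 with W15. For Egr1 the log2 rise at 45 min exceeded that at 15 min by 2.08, for Egr2 by 3.1 and for Egr4 by 3.22. Each was higher on all 3 W45 arrays than on all 3 W15 arrays. Both times share the TTX arrays, which cancel in this difference.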

How the results depend on the processing

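The calls of Egr1, Egr2 and Egr4 at 45 min against TTX and against 15 min held in all 19 alternatives, and Egr2 at 15 min was called in none (limma adjusted p 0.0603 to 1). At 15 min the number of members called was 2, and it was 1 with normexp background correction (Egr4 lost), 0 with slide as a block, and 0 to 2 when 1 array was left out. The number of all probes called was 6 at 15 min, and it was 2 with normexp, 10 with only the groups compared, 0 with slide as a block and 2 to 8 when 1 array was left out. At 45 min against TTX it was 58, and it was 26 with normexp, 34 without scaling, 38 without the filter, 33 with only the groups compared, 25 with slide as a block and 29 to 204 when 1 array was left out (204 without W45 array 1, of which 124 lower, and 93 without W45 array 3, of which 35 lower). Between 15 and 45 min it was 39, and it was 16 with normexp, 22 without the filter, 21 with only the groups compared and 20 to 232 when 1 array was left out (232 without W45 array 1, of which 161 lower, and 73 without W45 array 3, of which 36 lower). The number of members called stayed at 3 to 4 at 45 min against TTX and at 3 between 15 and 45 min. The Egr3 call at 45 min held with quantile scaling, with probes above background on all arrays, with 1 probe per gene name and without TTX array 3 or W45 array 1. It was lost in the other 14 alternatives, among them every other single array left out (limma adjusted p 0.0595 to 0.208), no scaling (log2 difference 1.08, limma adjusted p = 0.246) and the trended and robust variance (limma adjusted p = 0.0674). Signs turned only for differences that were not called. Nab2 was at -0.062 at 15 min and -0.14 at 45 min without scaling. With 1 array left out it ranged from -0.016 to 0.25 at 15 min (below 0 without TTX array 1 or W15 array 2), from -0.040 to 0.23 at 45 min (below 0 without TTX array 1) and from -0.11 to 0.13 between the times (above 0 without W15 array 2 or W45 array 1), and the last was 0.013 with quantile scaling. With normexp the difference between 15 and 45 min was -0.19 for Egr3 and -0.038 for Nab1. Normexp moved the median of all probes to 0.20, 0.13 and -0.19 in the 3 comparisons, and no scaling moved it to -0.16, -0.22 and -0.05, so that Egr3 under normexp lay at the median of all probes between 15 and 45 min. The cause of these changes was not tested. Same-numbered arrays correlated in their deviations at 0.06 to 0.38, positive in all 9 pairs and over 0.1 in 7 of them. In every comparison an array's highest correlation with the other group was with the array of its own number, also for W45. The main fit did not use the numbers as pairs. With the replicate block, 51 probes and 3 members were called at 45 min against TTX (Egr3 at limma adjusted p = 0.111), 5 probes and 2 members at 15 min and 30 probes and 3 members between the times. The block changed no other member call. The processed signal of Egr3 was at most 63.7 on any array, and its part in the lost calls was not tested.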
